A study of Mus musculus with 12 samples.

Results

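The 10 genes described here, Fkbp5, Zbtb16, Tsc22d3, Klf9, Sgk1, Sult1a1, Errfi1, Map3k6, Hif3a and Arrdc2, are genes known to respond to glucocorticoids. They were followed across mouse myocardium measured with 12 single-colour Affymetrix arrays. They were found by their gene symbol among the 19505 genes that the array annotation named, and each of the 10 had 1 probe set. Where several probe sets shared a symbol, the brightest on average was to stand for the gene. The genes were chosen by their known response to the hormone and with the log2 signals and group differences of these same arrays in view. Their differences between groups are therefore described and are no independent evidence. All 10 passed the filter that left out the dimmest 30% of genes, which left 13653 genes for the tests. That filter used the mean over all arrays and no group.

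The arrays came from 3 groups of 4 mice. Negative control mice (NC) received vehicle intraperitoneally for 5 days. Mice of the diabetes mellitus group (DM) received streptozotocin, a toxin of the pancreatic beta cell, for 5 days and were kept where fasting glucose reached at least 16.7 mM 2 weeks later. The third group (AngIV) held mice made diabetic in the same way that were also infused with high-dose angiotensin IV, a fragment of angiotensin II, at 2.88 mg/kg/day between weeks 8 and 24. Tissue is labelled with a time of 6 months. The sources used here give no strain, sex, age or hour of tissue collection, and each diabetic group rests on the toxin model alone. Groups were taken from the sample titles. The disease state tag calls the NC arrays diabetic and the AngIV arrays negative controls, against the titles and the design text, and was not used.

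Glucocorticoids, of which corticosterone is the main one in mice, enter the cell and bind the glucocorticoid receptor, which waits in a complex with the chaperone HSP90 and co-chaperones such as FKBP5. The bound receptor moves to the nucleus and attaches to glucocorticoid response elements, a pair of inverted half-sites, near the genes it switches on. In the heart the receptor acts within cardiomyocytes, and mice that lack it there are known to develop heart disease. Circulating corticosterone follows the time of day and rises with stress, so many of these genes also change over the day.

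The sequence before the gene starts is shown because the receptor acts through sites of known letters. RefSeq promoter windows of build GRCm38.p6 were found for 9 of the 10 genes, all but Zbtb16. They held 17 start sites, 6 of them for Sgk1, and the 250 bases before each were searched on both strands. The complete glucocorticoid response element, AGAACA and TGTTCT with any 3 bases between them, occurred in 1 of the 17 windows, a start site of Sgk1, and in 3 of all 32851 windows, 0.00913% of them. Its half-site, AGAACA or TGTTCT, occurred in 5 of the 17 windows, belonging to Sgk1, Sult1a1 and Tsc22d3, and in 16.1% of all windows. The E-box CACGTG, the site of the clock proteins CLOCK and BMAL1, occurred in 2 of the 17 windows, for Fkbp5 and Sgk1, and in 6.02% of all windows. The forkhead box TGTTTAC occurred in 1 window, that of Klf9, and in 3.17% of all. Complete elements contain half-sites and were counted under both. The 4 windows below are 1 with the receptor's sites for each of Sgk1, Sult1a1 and Tsc22d3, and that of Fkbp5. Fkbp5 is the gene with the largest change of the 10 in AngIV against NC. For Sgk1 the window with the complete element is shown. Its windows before the starts at chr10:21882184 and chr10:21992223, each with a half-site, are not printed. Capitals mark the glucocorticoid sites and E-boxes, and each window runs 5′ to 3′ on the strand of the gene.
Sgk1, chr10:21993640-21993889, plus strand: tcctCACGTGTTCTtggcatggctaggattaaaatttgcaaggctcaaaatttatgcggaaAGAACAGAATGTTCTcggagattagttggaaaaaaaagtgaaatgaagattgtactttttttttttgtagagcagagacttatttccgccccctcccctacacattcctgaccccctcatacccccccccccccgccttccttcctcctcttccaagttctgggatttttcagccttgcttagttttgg
Sult1a1, chr7:126676419-126676668, minus strand: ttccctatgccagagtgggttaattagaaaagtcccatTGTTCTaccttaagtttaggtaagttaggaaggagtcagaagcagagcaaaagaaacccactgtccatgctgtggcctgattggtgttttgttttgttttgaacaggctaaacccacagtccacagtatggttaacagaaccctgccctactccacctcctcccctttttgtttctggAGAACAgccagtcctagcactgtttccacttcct
Tsc22d3, chrX:140600523-140600772, minus strand: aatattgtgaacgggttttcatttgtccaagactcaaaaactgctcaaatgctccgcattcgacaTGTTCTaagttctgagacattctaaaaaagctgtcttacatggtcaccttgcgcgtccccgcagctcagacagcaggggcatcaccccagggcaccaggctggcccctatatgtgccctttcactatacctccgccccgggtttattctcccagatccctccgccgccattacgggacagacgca
Fkbp5, chr17:28486150-28486399, minus strand: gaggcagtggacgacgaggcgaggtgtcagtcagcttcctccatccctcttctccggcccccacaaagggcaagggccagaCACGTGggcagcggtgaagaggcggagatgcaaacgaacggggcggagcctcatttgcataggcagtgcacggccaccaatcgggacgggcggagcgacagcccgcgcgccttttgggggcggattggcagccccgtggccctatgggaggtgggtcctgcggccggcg

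In the Sgk1 window the element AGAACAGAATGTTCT lies 189 to 175 bases before the start, and the E-box at the far end shares 2 bases with another half-site. In Sult1a1 the half-sites begin 212 and 34 bases before the start, and in the Tsc22d3 window 185 bases before it. A match describes the letters of this window only. Elements farther from the start, as many of the receptor's sites are, were not searched.

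Across the 12 arrays the defining genes of working heart muscle were bright. The mean of 9 cardiomyocyte genes such as Myh6, Tnnt2 and Myl2 lay between 11.2 and 11.4 on the log2 scale on every array. Markers of the atria were uneven: the mean of 8 atrial genes ranged from 5.34 to 7.96 on the NC arrays, 4.99 to 7.56 in DM and 5.23 to 5.51 in AngIV. NC replicate 1, the array with the highest atrial mean, also had the highest mean of 4 smooth muscle genes, 8.10 against 5.41 to 6.22 on the other NC arrays. The mean of 11 macrophage genes ranged from 5.63 to 5.84, 5.64 to 6.67 and 5.68 to 6.45. Lymphocyte, skeletal muscle and nerve markers were dim, all 5, 5 and 2 of the measured ones lying under the background guide used here. The guide is the signal that 95% of negative control probe sets stay under, and it was 5.39 to 5.60 on the log2 scale over the 12 arrays. In bulk tissue, fewer cells of a type and less RNA per cell cannot be told apart.

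Fkbp5, the co-chaperone that lowers the receptor's affinity for its hormone and is itself induced by it, showed the largest difference of the 10 between AngIV and NC, while Zbtb16 did between DM and NC. Its log2 signal was 6.35, 4.88, 5.93 and 5.77 on NC replicates 1 to 4. On the DM arrays it was 8.69, 7.76, 6.02 and 6.24, and on the AngIV arrays 7.64, 8.69, 8.25 and 8.55. DM replicates 1 and 2 thus lay among the AngIV arrays and replicates 3 and 4 within the NC range, while AngIV and NC did not overlap. Mean ± SD over 4 arrays was 5.73 ± 0.62 for NC, 7.18 ± 1.27 for DM and 8.28 ± 0.46 for AngIV. The NC mean lay near the background guide of 5.48 for those arrays, and NC replicate 2 lay below it. Folds of Fkbp5 against NC therefore rest on a dim control level.

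Zbtb16, which encodes the zinc finger transcription factor PLZF, read 7.26, 6.51, 7.16 and 6.91 on the NC arrays. It read 9.48, 8.82, 7.99 and 7.85 in DM and 9.0, 9.37, 8.95 and 9.22 in AngIV. Every diabetic array, treated or not, lay above every NC array, and DM replicates 3 and 4 were again the lowest of the 8. The means were 6.96 ± 0.34, 8.54 ± 0.76 and 9.13 ± 0.19 (log2, mean ± SD, n = 4 each).

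Tsc22d3 encodes GILZ, a leucine zipper protein through which glucocorticoids restrain inflammatory transcription factors. Its log2 signals were 7.23, 6.12, 7.27 and 7.16 in NC, 8.16, 7.27, 6.88 and 6.67 in DM and 7.46, 7.99, 7.77 and 7.93 in AngIV. NC replicate 2 stood far below the other NC arrays, DM overlapped both other groups, and AngIV lay wholly above NC. Klf9, a Krüppel-like repressor that responds to glucocorticoids and thyroid hormone, read 7.59, 7.18, 7.80 and 7.46 in NC. It read 8.30, 7.93, 7.82 and 7.69 in DM and 7.75, 8.01, 7.93 and 8.28 in AngIV, and the highest NC array overlapped both diabetic groups.

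Sult1a1, a cytosolic sulfotransferase that conjugates phenols and drugs, had log2 signals of 5.69, 5.03, 6.03 and 5.32 in NC. They were 7.04, 6.22, 5.67 and 5.80 in DM and 6.25, 6.92, 6.74 and 7.05 in AngIV. Its NC mean of 5.52 lay just above the background guide of 5.48 for those arrays, so its fold against NC rests on a dim control level. AngIV lay above NC on every array, and DM again split into higher replicates 1 and 2 and lower replicates 3 and 4.

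Sgk1 and Errfi1 differed from these, with means no higher in AngIV than in NC. Sgk1, a kinase that promotes sodium channel retention and shares targets with AKT, averaged 7.12 ± 0.14 for NC, 7.35 ± 0.20 for DM and 6.91 ± 0.36 for AngIV (log2 signal ± SD over 4 arrays). Its arrays read 7.18, 6.92, 7.12 and 7.26 in NC, 7.54, 7.27, 7.10 and 7.50 in DM and 6.41, 6.99, 7.25 and 7.0 in AngIV. The 3 groups overlapped, and AngIV replicate 1 was the lowest of all. Errfi1, which encodes the inhibitor MIG6 of the EGF receptor, had means of 6.28 ± 0.36, 6.01 ± 0.23 and 6.01 ± 0.56 in the same order, with overlapping groups. Its arrays ranged from 5.89 to 6.74 in NC, 5.84 to 6.35 in DM and 5.29 to 6.64 in AngIV.

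The last 3 genes were dim, with every group mean below the background guide, so their differences are differences of signals near background and no fold is given. Map3k6, a kinase of the stress-activated cascade, read 3.28 to 3.64 in NC, 3.53 to 4.83 in DM and 3.79 to 4.38 in AngIV. Arrdc2, of the arrestin domain family, read 3.86 to 4.37, 4.2 to 5.01 and 4.33 to 5.55. Hif3a, a hypoxia-inducible factor subunit that can oppose the other subunits, read 4.06 to 4.98, 4.29 to 4.87 and 4.54 to 4.82. Map3k6 lay above NC on every AngIV array, whereas Arrdc2 and Hif3a overlapped in all comparisons.

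**Figure D1:**
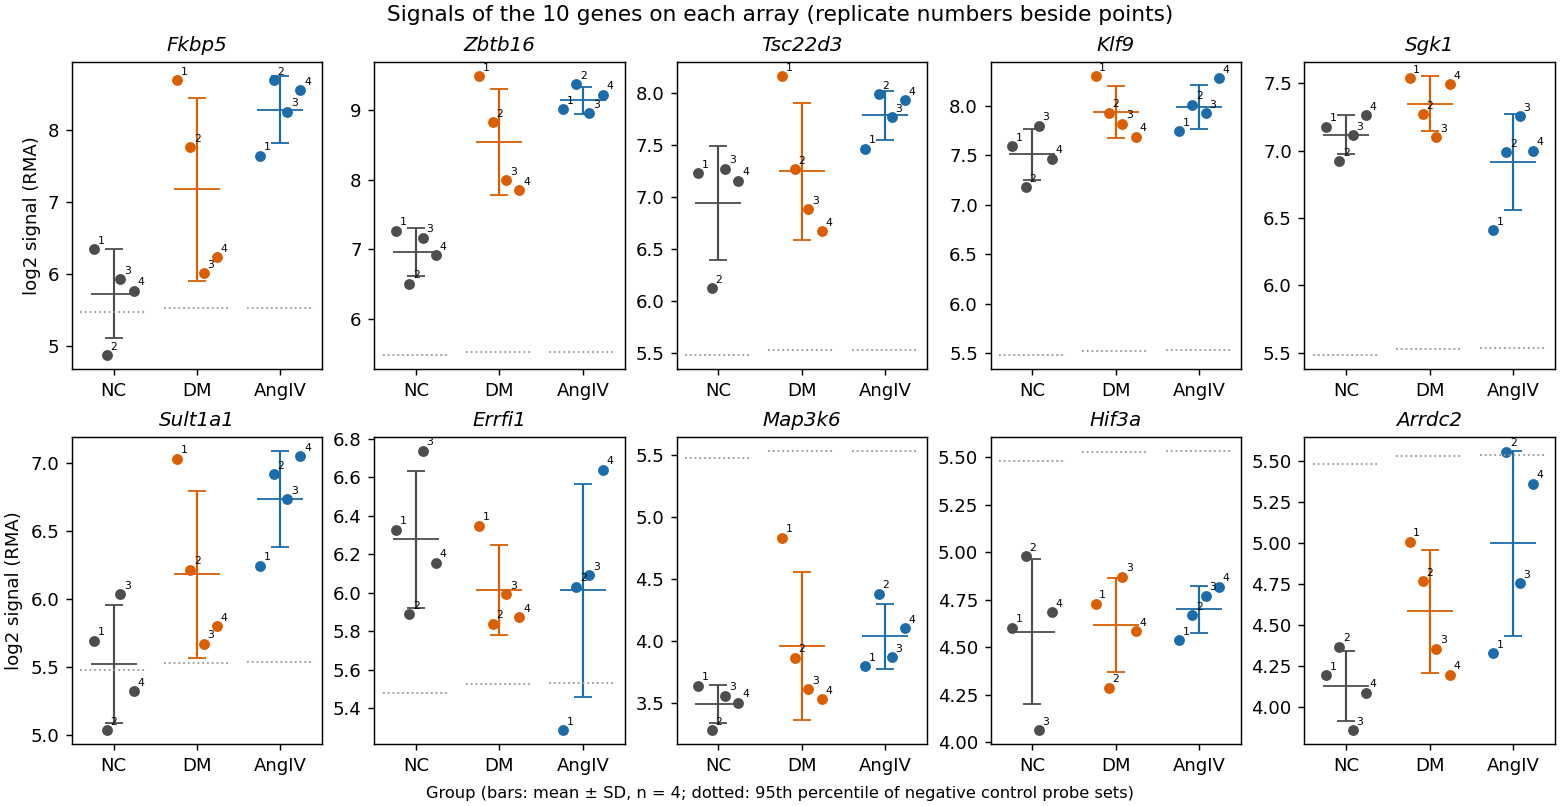
Log2 signal of each of the 10 genes (vertical axis) on the 4 arrays of NC, DM and AngIV (points, with replicate numbers), with the mean and SD of each group as bars and the background guide from negative controls as dotted lines. Fkbp5, Zbtb16, Tsc22d3, Klf9, Sult1a1, Map3k6 and Arrdc2 have group means rising in the order NC, DM, AngIV. In each of these, DM replicates 1 and 2 lie above replicates 3 and 4. The means of Map3k6, Hif3a and Arrdc2 lie below the dotted lines.

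DM was compared with NC to set streptozotocin diabetes without angiotensin IV beside vehicle control. None of the 10 genes passed limma's test across all 13653 genes at an adjusted p under 0.05, where 3 genes in all did, 0.022% of those tested. The nearest was Zbtb16, 2.98-fold higher (95% interval 1.96 to 4.53; limma adjusted p = 0.0681) and higher in 4 of 4 DM arrays. Fkbp5 stood 2.72-fold higher with an interval from 1.33 to 5.55 (limma adjusted p = 0.29). Sult1a1 had a log2 change of 0.66 ± 0.28 (SE) and Klf9 0.43 ± 0.16. At an unadjusted p under 0.05 there were 4 genes of the 10, these 4, and 10.7% of all genes. Only Zbtb16 lay above NC on every DM array, against 2.84% of all genes. Tsc22d3 had 0.30 ± 0.29 (SE), Sgk1 0.23 ± 0.16, Errfi1 -0.26 ± 0.24 and Hif3a 0.04 ± 0.17. The 95% interval of Tsc22d3, from -0.33 to 0.93 on the log2 scale, holds a fall as well as a rise of nearly a doubling.

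The diabetic group's mean rested in part on 1 array. Without DM replicate 1 the log2 change of Fkbp5 was 0.94 in place of 1.44, that of Sult1a1 0.38 in place of 0.66, that of Map3k6 0.17 in place of 0.47 and that of Tsc22d3 -0.0041. Without NC replicate 2 that of Tsc22d3 was 0.03, and without DM replicate 4 it was 0.49. That of Errfi1 was -0.11 without NC replicate 3, in place of -0.26. Zbtb16 was called without DM replicate 3 (limma adjusted p = 0.0482) or DM replicate 4 (0.0216), with a trend in the prior (0.0226), with the dimmest 50% of genes left out (0.0496), above the negative controls (0.0324) and with the atrial marker mean as a covariate (0.0408). Its limma adjusted p ranged from 0.0216 to 0.262 over 23 alternatives.

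AngIV was compared with DM to set diabetic mice infused with angiotensin IV beside diabetic mice without it. None of the 10 was called, nor was any of the 13653 genes (0%), and 8.78% of all genes had an unadjusted p under 0.05. Fkbp5 stood 1.11 higher on the log2 scale, its 95% interval running from 0.08 to 2.14 (limma unadjusted p = 0.0366, adjusted p = 0.545). Zbtb16 stood at 0.60 ± 0.28 (SE), Sult1a1 at 0.56 ± 0.28, Tsc22d3 at 0.54 ± 0.29 and Arrdc2 at 0.42 ± 0.24. Sgk1 went the other way, with -0.44 and an interval from -0.78 to -0.10 (limma unadjusted p = 0.0154, adjusted p = 0.496). Klf9, Map3k6 and Hif3a had 0.06 ± 0.16, 0.08 ± 0.23 and 0.08 ± 0.17, and Errfi1 -0.0012 ± 0.24. For 0 of the 10 did AngIV lie above DM on every array, against 3.57% of all genes.

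The size of these differences moved with single arrays and when the atrial marker mean was a covariate. Without DM replicate 3 the log2 change of Fkbp5 was 0.72, and without DM replicate 4 that of Zbtb16 was 0.37 and that of Tsc22d3 0.35. Without DM replicate 1, Zbtb16 had 0.91, Tsc22d3 0.85 and Sult1a1 0.84. Sgk1 had -0.27 without AngIV replicate 1, and Arrdc2 had 0.64 without AngIV replicate 1 and 0.23 without AngIV replicate 2. With the mean of the 8 atrial markers on each array as a covariate, the log2 change was 1.85 for Fkbp5, 0.99 for Zbtb16, 0.93 for Sult1a1 and 0.86 for Tsc22d3, none of them called (limma adjusted p = 0.239 to 0.448).

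AngIV against NC set treated diabetic mice beside controls. Fkbp5 rose 5.86-fold (limma adjusted p = 0.0157), with a 95% interval from 1.52 to 3.58 on the log2 scale. Zbtb16 rose 4.51-fold (95% interval 2.96 to 6.86; limma adjusted p = 0.00282), the gene with the eighth smallest p of all. Sult1a1 rose 2.33-fold with an interval from 1.54 to 3.51 (limma adjusted p = 0.0351). These 3 of 10 were called, beside 2.15% of all genes, of which 208 were higher and 85 lower. Each was higher in 4 of 4 AngIV arrays. Arrdc2 had a log2 change of 0.87 ± 0.24 (SE; limma adjusted p = 0.0674) near background, Tsc22d3 0.84 ± 0.29 (0.141), Map3k6 0.54 ± 0.23 near background (0.219) and Klf9 0.48 ± 0.16 (0.118).

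At an unadjusted p under 0.05 there were 7 of the 10, all higher, against 18.6% of all genes. On every array AngIV lay above NC for 5 of the 10, Fkbp5, Zbtb16, Sult1a1, Tsc22d3 and Map3k6, against 7.59% of all genes. Sgk1 had -0.21 with a 95% interval from -0.55 to 0.13, Errfi1 -0.27 with -0.77 to 0.24, and Hif3a 0.12 with -0.24 to 0.48. Without AngIV replicate 1 Sgk1 had -0.038 and Errfi1 -0.024. Sgk1 had -0.32 without AngIV replicate 3, and Errfi1 had -0.11 without NC replicate 3 and -0.47 without AngIV replicate 4. The median log2 change of the 10 was 0.69, and that of all genes tested 0.0033. The members were chosen with such values known, so these counts describe the list and show nothing particular to it.

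Zbtb16 was called under all 23 alternatives (limma adjusted p = 0.000156 to 0.0119). Fkbp5 was not called without NC replicate 2 or without AngIV replicate 4 (limma adjusted p = 0.0515 and 0.0512). Sult1a1 was not called without NC replicate 1, 2 or 4 or without AngIV replicate 2, 3 or 4 (0.0618 to 0.0982). Of the dim genes, Arrdc2 was called with a trend in the prior (0.0428) and without AngIV replicate 1 (0.025), and Map3k6 without DM replicate 1 (0.0457).

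Diabetic mice of both kinds were also set together against NC, a comparison that shares its arrays with those above. Of the 10 genes 2 were called, beside 1.32% of all genes. Zbtb16 rose 3.66-fold (limma adjusted p = 0.00333) and was the only one of the 10 whose 8 diabetic arrays all lay above NC, against 1.44% of all genes. Fkbp5 rose 3.99-fold (95% interval 2.15 to 7.40; limma adjusted p = 0.0317). It was not called without any 1 of NC replicates 1 to 4, DM replicate 2 or AngIV replicates 2 to 4 (0.0534 to 0.107). Sult1a1 had a log2 change of 0.94 ± 0.24 (SE; limma adjusted p = 0.0659). It was called under 6 of 22 alternatives, down to an adjusted p of 0.0188 with the atrial covariate, and without DM replicate 3 (0.0481) or DM replicate 4 (0.0481). Arrdc2 was called without AngIV replicate 1 (0.0497). Tsc22d3 had 0.57, and 0.30 without NC replicate 2, and Errfi1 -0.26, and -0.11 without NC replicate 3 or -0.14 without AngIV replicate 1. At an unadjusted p under 0.05 there were 7 of 10, against 16.4% of all genes.

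**Figure D2:**
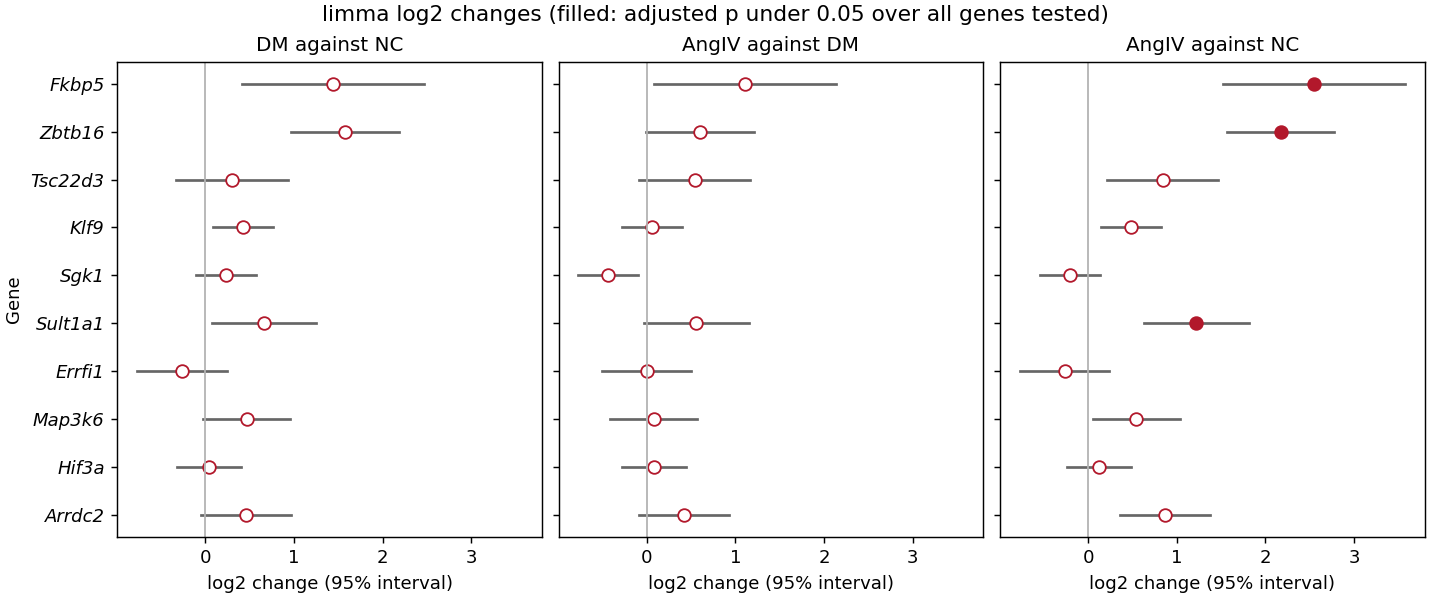
Log2 change of each gene (horizontal axis, point) with its 95% interval (line) in 3 comparisons of the groups, from 1 limma fit over 12 arrays. Filled points passed an adjusted p under 0.05 over all 13653 genes, which Fkbp5, Zbtb16 and Sult1a1 did in AngIV against NC, while Sgk1 and Errfi1 lie left of 0 there.

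Beside the group differences, 5 of the other 9 genes varied with Fkbp5 within groups, with r over 0.8. The dim Map3k6 was among these 5, and 4 did not reach that r. Each array's deviation from its own group's mean was taken, which removes the group differences, and Fkbp5 was set against the other 9 genes, 5 clock genes and 3 marker means, 17 relations in all. The p-values come from an exact permutation of the arrays within their groups (13824 arrangements, two-sided) with Benjamini-Hochberg adjustment over the 17. The 12 arrays share their normalization. The members were chosen with these signals in view, so the p-values of their relations are described and are no independent evidence.

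Zbtb16 followed Fkbp5 most closely, with Pearson's r = 0.966 (exact permutation p = 0.000868, adjusted p = 0.00584) and Spearman's rho = 0.979 (p = 0.000506, adjusted p = 0.0043). Tsc22d3 had r = 0.915 and rho = 0.818 (exact permutation p = 0.00109 and 0.00203, adjusted p = 0.00584 and 0.0115). Sult1a1 had r = 0.901 and rho = 0.832 (exact permutation p = 0.00137 and 0.00434, adjusted p = 0.00584 and 0.0157). For Map3k6 r was 0.89 and rho 0.902 (exact permutation p = 0.000217 for both, adjusted p = 0.00369). Every group mean of Map3k6 lay below the background guide, so its deviations are those of signals near background. For Klf9 r was 0.803 and rho 0.832 (exact permutation p = 0.00253 and 0.00463, adjusted p = 0.00861 and 0.0157). On all 5, as on Arrdc2, DM replicate 1 read highest of the DM arrays and replicates 3 and 4 lowest, so these relations restate in part what the signals by array show. Among the 13643 tested genes outside the list, 168 (1.23%) also had r over 0.8 with Fkbp5, and the members had been chosen with these signals in view, so the count describes the list and is no trait of it. Without DM replicates 1 and 3, the arrays farthest from the median, r was 0.936 for Zbtb16, 0.891 for Tsc22d3, 0.809 for Sult1a1, 0.803 for Map3k6 and 0.773 for Klf9.

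Arrdc2, Errfi1, Sgk1 and Hif3a did not pass. Arrdc2 had r = 0.606 and rho = 0.608 (exact permutation p = 0.0423 and 0.045, adjusted p = 0.075 and 0.0853; r = 0.513 without the 2 arrays). Errfi1 had r = 0.528 and rho = 0.462 (exact permutation p = 0.0273 and 0.123, adjusted p = 0.0662 and 0.174; r = 0.55 without the 2 arrays). Sgk1, the gene with the complete element in its window, had r = 0.497 and rho = 0.294 (exact permutation p = 0.0856 and 0.38, adjusted p = 0.116 and 0.43; r = 0.332 without the 2 arrays). Hif3a had r = -0.281 and rho = -0.217 (exact permutation p = 0.432 and 0.551, adjusted p = 0.459 and 0.551; r = -0.364 without the 2 arrays).

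Clock genes and tissue markers were set against Fkbp5 in the same way. The period gene Per2, a clock repressor whose gene glucocorticoids also regulate, had r = 0.758 and rho = 0.825 (exact permutation p = 0.0114 and 0.00854, adjusted p = 0.0324 and 0.0242; r = 0.745 without the 2 arrays). Per3 had r = 0.607 and rho = 0.587 (exact permutation p = 0.0841 and 0.108, adjusted p = 0.116 and 0.169). Per1 had r = 0.464 and rho = 0.301 (exact permutation p = 0.0888 and 0.325, adjusted p = 0.116 and 0.395). The clock output factor gene Dbp had r = -0.68 and rho = -0.706 (exact permutation p = 0.0373 and 0.0451, adjusted p = 0.075 and 0.0853). Arntl, which encodes the clock activator BMAL1, had r = -0.116 and rho = -0.21 (exact permutation p = 0.698 and 0.522, adjusted p = 0.698 and 0.551). Without the 2 arrays r was 0.632 for Per3, 0.512 for Per1, -0.409 for Dbp and -0.111 for Arntl. Group means lay below the background guide for Per2 in NC and DM, Per3 in NC and Arntl in DM and AngIV. The deviations of these genes there are those of signals near background.

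The mean of the atrial markers had r = 0.685 and rho = 0.783 with Fkbp5 (exact permutation p = 0.0441 and 0.0149, adjusted p = 0.075 and 0.0362; r = 0.599 without the 2 arrays). The covariate given above holds the marker mean only, and the part of atrial tissue in the members' values was not tested. For the macrophage mean r was 0.458 and rho 0.392 (exact permutation p = 0.312 and 0.3, adjusted p = 0.354 and 0.392), and for the cardiomyocyte mean r was -0.389 and rho -0.517 (exact permutation p = 0.233 and 0.109, adjusted p = 0.283 and 0.169). Without the 2 arrays r was 0.311 and -0.499.

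**Figure D3:**
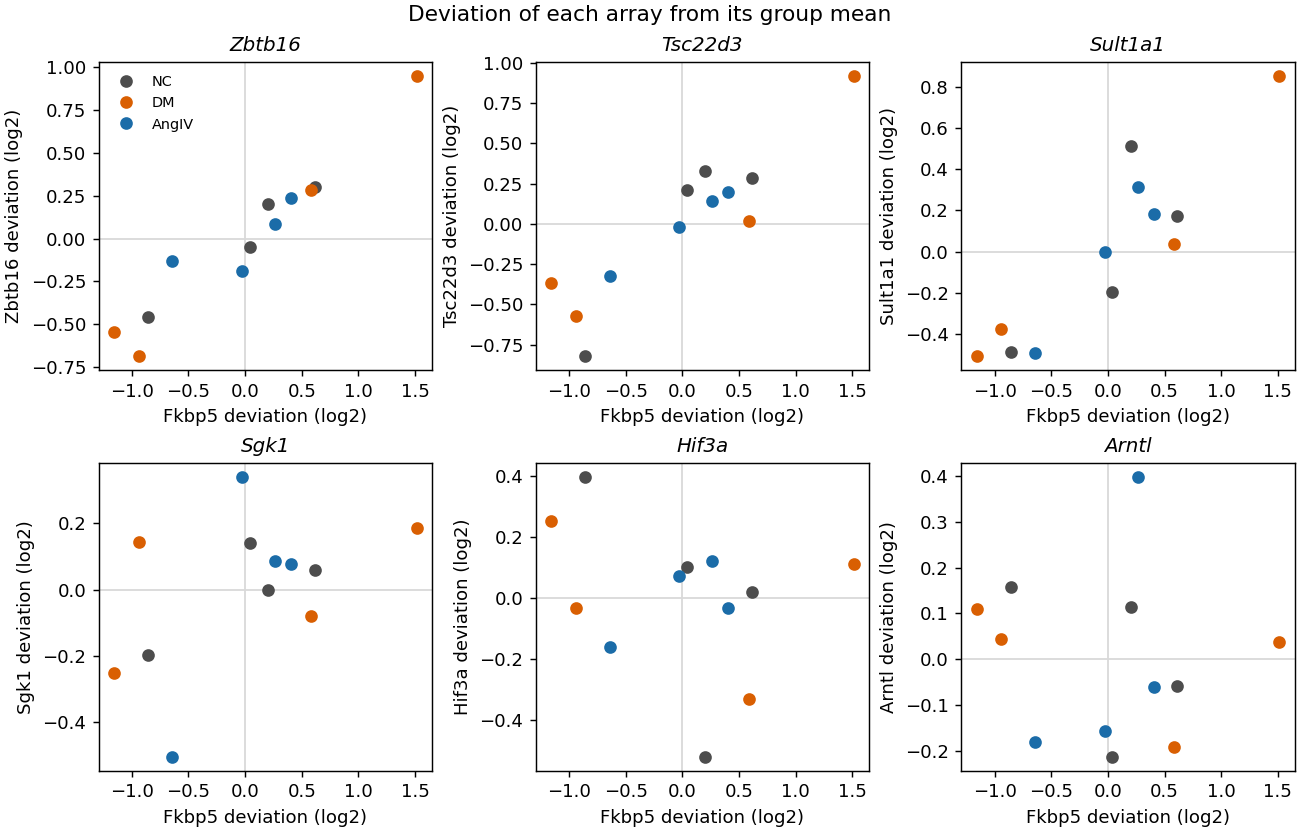
Deviation of each array from its group mean for Fkbp5 (horizontal axis, log2) against that of Zbtb16, Tsc22d3, Sult1a1, Sgk1, Hif3a and Arntl (vertical axes, log2), 1 point per array coloured by group. Points of Zbtb16 and Tsc22d3 run close to a line with r of 0.966 and 0.915, with DM replicate 1 at the upper right, and those of Hif3a and Arntl do not.

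The genes outside the 10 whose signals were most like theirs were ranked by Pearson's r with the mean of the members' standardized signals, as a description. Over the 12 arrays these were Bcl2l1 (0.953), which encodes the survival protein BCL-XL, Nfkbia (0.951), the NF-kappaB inhibitor gene that glucocorticoids induce, Irf2bp2 (0.946), Trp53inp1 (0.946) and Elmod3 (0.936). With deviations from the group means the order was Bcl2l1 (0.972), Rad9b (0.947), the cell cycle inhibitor gene Cdkn1a (0.943), the chemokine gene Cxcl13 (0.929) and the ceruloplasmin gene Cp (0.925). Bcl2l1, first in both, had log2 signals of 6.02, 5.24, 5.83 and 5.79 in NC, 7.22, 6.28, 6.04 and 5.97 in DM and 6.5, 7.27, 6.97 and 7.21 in AngIV. It rose in AngIV against NC (log2 change 1.27 ± 0.25, SE; limma adjusted p = 0.0192). Bcl2l1 was picked by its likeness to the members on these same arrays, so that difference is no independent evidence. The means of Trp53inp1, Rad9b and Cxcl13 lay below the background guide in every group. Cxcl13 read 6.96 on DM replicate 1, above the guide, and 2.71 to 3.86 on the other DM arrays.

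None of the receptors and the enzymes that handle the hormone was called in any comparison. Nr3c1, the glucocorticoid receptor gene, averaged 6.12 ± 0.03 for NC, 6.07 ± 0.09 for DM and 6.04 ± 0.09 for AngIV (log2 signal ± SD over 4 arrays). Its log2 change was -0.05 in DM against NC, with a 95% interval from -0.24 to 0.13, and -0.09 in AngIV against NC, from -0.27 to 0.10. Nr3c2, the mineralocorticoid receptor gene, which also binds corticosterone, had -0.12 with an interval from -0.37 to 0.12 and 0.04 with -0.21 to 0.29. Hsd11b1, which regenerates active corticosterone within cells, had 0.04 with -0.35 to 0.42 and 0.37 with -0.01 to 0.75. Hsd11b2, which inactivates it, was below the background guide in all groups. Fkbp4, the co-chaperone that favours hormone binding where FKBP5 opposes it, had -0.24 in DM against NC and -0.31 ± 0.12 (SE) in AngIV against NC, with a limma adjusted p = 0.199 in the latter. Of the 16 genes tested in this list of receptors, converting enzymes, chaperones and coregulators, limma called 0 in each of the 4 comparisons. At an unadjusted limma p under 0.05 DM against NC had 1 gene, lower, and AngIV against DM had 0, where 10.7% and 8.78% of all genes did. AngIV against NC had 3 up and 2 down, and the joint comparison 2 up and 2 down, where 18.6% and 16.4% of all genes did.

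A list of 34 other genes that glucocorticoids are known to regulate gave 31 tested. The list was chosen with earlier results of these data known, so its counts and medians are described and are no independent evidence. In AngIV against NC limma called 6 higher and 1 lower of them, beside 2.15% of all genes, and 24 were not called. The median log2 change was 0.36, beside 0.0033 over all genes. Fbxo32, the muscle ubiquitin ligase atrogin-1, rose with a log2 change of 0.83 ± 0.12 (SE; limma adjusted p = 0.00573). The transcription factor gene Foxo3 rose by 0.55 ± 0.10 (0.0154) and Pik3r1, a regulatory subunit of PI3 kinase, by 0.87 ± 0.17 (0.0159). The metallothioneins Mt1 and Mt2, which bind zinc and copper, rose by 0.70 ± 0.14 and 1.21 ± 0.24 (0.0165 and 0.0205), and the metabolic regulator gene Klf15 by 0.67 ± 0.16 (0.0412). Dusp1, a MAP kinase phosphatase that glucocorticoids induce in many cells, fell by 0.71 on the log2 scale (limma adjusted p = 0.0165). Its AngIV arrays read 7.42, 7.93, 7.46 and 7.37, all below the NC range of 8.23 to 8.30.

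In DM against NC limma called 0 of the 31, with 10 genes at an unadjusted p under 0.05, all of them higher, beside 10.7% of all genes in either direction, and a median of 0.19. In AngIV against DM it called 0, with 5 genes at an unadjusted p under 0.05, of which 4 were higher, beside 8.78% of all genes, and a median of 0.0042. With both diabetic groups together 5 were called, all higher, beside 1.32% of all genes. Several known targets were not called in any comparison. Per1 had a log2 change of 0.49 ± 0.17 (SE) in AngIV against NC, the NF-kappaB inhibitor gene Nfkbia 0.59 ± 0.18, Cebpd, a transcription factor gene of the acute response, 0.83 ± 0.30, and Ddit4, an mTORC1 brake, 0.13 ± 0.36. Pdk4, which restrains glucose oxidation, had 1.41 ± 0.42 in DM against NC and -0.81 ± 0.42 in AngIV against DM, and Angptl4, a lipoprotein lipase inhibitor gene, 0.54 ± 0.26 and -0.20 ± 0.26.

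Of 18 clock genes tested, limma called 6 higher and 2 lower in AngIV against NC, beside 2.15% of all genes, with Per2 and Per3 higher by 1.13 ± 0.13 and 1.19 ± 0.15 (log2 change ± SE; limma adjusted p = 0.00106 and 0.00282) although their NC means lay below the background guide. In that comparison Arntl fell by 2.07 and Clock fell by 0.66 on the log2 scale (limma adjusted p = 2.39e-06 and 0.00617), Arntl to signals below the background guide. Nr1d2, Tef, Cry2 and Ciart were the other genes higher, of which Tef lay below the background guide in all groups and Ciart in NC. In DM against NC Arntl alone of the 18 was called, lower, and in AngIV against DM 0 were, with 6 higher and 3 lower at an unadjusted limma p under 0.05 (8.78% of all genes). Arntl read 4.44, 4.21, 4.51 and 4.44 on DM replicates 1 to 4, where Fkbp5 read 8.69, 7.76, 6.02 and 6.24. All 4 of these Arntl readings lay below the background guide, so differences among them are not read. The clock list too was chosen with earlier results of these data known, so its counts are no independent evidence. The part of the clock, and of the hour at which tissue was taken, in the members' values was not tested.

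**Figure D4:**
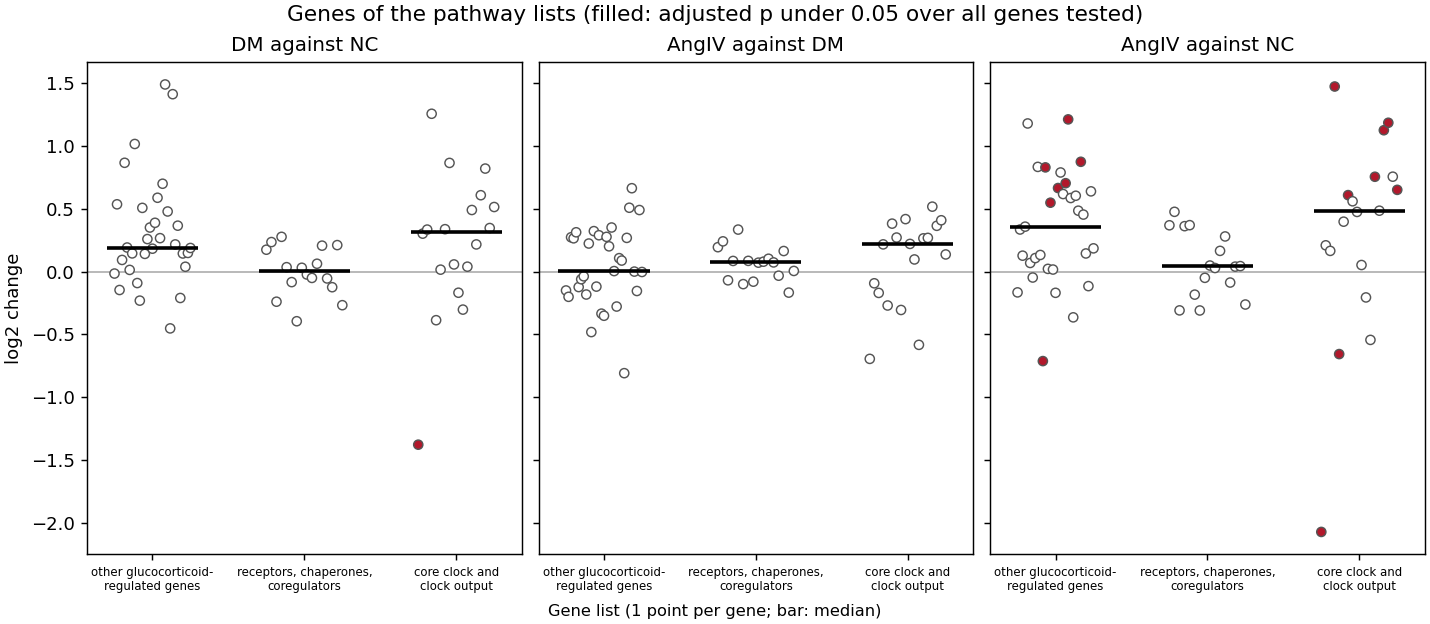
Log2 change (vertical axis) of each tested gene of 3 lists, 31 other glucocorticoid-regulated genes, 16 genes of receptors, chaperones and coregulators and 18 clock genes, in 3 comparisons, with list medians as bars. Filled points passed an adjusted p under 0.05 over all genes, which 7, 0 and 8 genes of the lists did in AngIV against NC.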

How the data were processed

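The deposited values are log2 signals, 1 per probe set and array, from RMA, the only tool that the submitters' processing notes name. That they are log2 follows from their range. The sources used here state neither an RMA version nor a genome build. RMA corrects background, equalizes array distributions by quantiles and summarizes probes. Quantile normalization hides changes in total RNA, and RMA compresses differences near background. Of 29129 probe sets, 6923 controls were left out, and 19572 of 22206 others carried 1 gene symbol (2634 none, 0 several). All 19505 genes matched a RefSeq table by Entrez ID.

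Comparisons used limma 3.58.1 in R 4.3.3 (lmFit, eBayes), 1 mean per group over 12 arrays, Benjamini-Hochberg adjustment over 13653 genes with a mean log2 signal of at least 3.40, checked on simulated data. Array number limits the precision: the median standard error was 0.127. A gene whose group mean lay below the 95th percentile of negative controls is given no fold. Members and lists were chosen with earlier results of these data known. Beyond the members, the text names the listed genes called in any comparison (at most 8 per list), a set list of receptor, clock and target genes, and the 5 most similar genes by each measure; Hsp90ab1 was not analysed here. Replicate numbers did not pair the arrays. Alternatives were filters, prior trend, array weights, scaling, probe set rule, atrial covariate, replicate block and single arrays left out.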

Additional observations from a re-analysis of the deposited data

Results flagged for a closer look

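Among 123 sets of 4 arrays (members, fixed genes and marker means in each group), 6 held an array that stood apart by Dixon's test at the 95% level; chance gives about 1 in 20. Tsc22d3 read 6.12 on NC replicate 2, where the other NC arrays read 7.16 to 7.27. On the same array Mt1 read 9.87, above the 9.69 to 9.72 of the others. Dusp1 read 7.93 on AngIV replicate 2, against 7.37 to 7.46. The adipocyte marker mean was 5.26 on DM replicate 1, against 5.04 to 5.08. On AngIV replicate 1 the erythroid mean, which rests on 1 gene, was 6.2, against 5.60 to 5.66, and the skeletal muscle mean was 4.12, against 3.93 to 3.94, near background.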

How the results depend on the processing

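Over 23 alternatives Zbtb16 kept its call in AngIV against NC, whereas the calls of Fkbp5 and Sult1a1 there depended on single arrays. The number of genes called moved with the filter and the prior. In DM against NC 3 genes were called, and 20 without the dimmest 50%, 24 above the negative controls, 29 with a trend in the prior, 5 with the arrays of the 2 groups only and 5 with the atrial covariate. In AngIV against NC 293 were called, and 492, 594, 576 and 466 under the first 4 of these. In the joint comparison 180 were called, and 328 without the dimmest 50%, 425 above the negative controls, 433 with a trend in the prior and 325 with the atrial covariate. The cause of these shifts was not tested. Leaving out 1 array gave 3 to 30 genes in DM against NC, 0 to 5 in AngIV against DM, 104 to 469 in AngIV against NC and 49 to 338 in the joint comparison. With the replicate number as a block the counts were 3, 0, 218 and 138, and Sult1a1 in AngIV against NC had a limma adjusted p = 0.0695. The numbers did not pair the arrays: 2 of 12 same-numbered pairs deviated together with a correlation over 0.1, and 2 of 12 arrays were closest to one of their own number.

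Signs turned only for members that were not called. With array weights the log2 change of Errfi1 in AngIV against DM was 0.045 and that of Sgk1 in the joint comparison -0.019; the latter was -0.0024 after renewed quantile normalization. With the atrial covariate Errfi1 had 0.14 and Hif3a -0.10 in AngIV against DM, and Hif3a -0.038 in AngIV against NC. Leaving out 1 array gave ranges across 0 in DM against NC for Hif3a (-0.14 to 0.17) and Tsc22d3 (-0.0041 to 0.49). In AngIV against DM it did so for Errfi1 (-0.21 to 0.24), Klf9 (-0.040 to 0.18), Map3k6 (-0.066 to 0.37) and Hif3a (-0.028 to 0.17), in AngIV against NC for Hif3a (-0.055 to 0.25), and in the joint comparison for Sgk1 (-0.054 to 0.10) and Hif3a (-0.10 to 0.21).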
